A study of Mus musculus with 20 samples.

Results

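The genes described here are 10 genes of the unfolded protein response (UPR) of the endoplasmic reticulum (ER): Xbp1, Atf6, Ern1, Herpud1, Sdf2l1, Pdia4, Pdia6, Calr, Canx and Creld2. They were picked by symbol from the deposited expression tables, and all 10 were among the 13688 genes that the 4 tables share. RNA was sequenced in 20 libraries from primary neurons of the mouse cortex, prepared at embryonic day 15 and kept for 7 days in culture. Cultures were wild type (WT) or lacked the circular RNA ciRS-7 through a knockout (KO), and were held for 12 h in normoxia with 25 mM glucose and sodium pyruvate (groups N_WT and N_KO) or in oxygen and glucose deprivation (OGD) at 1% oxygen in medium without these additions (groups OGD_WT and OGD_KO). Every library, the WT ones included, carried the strain label C57BL/6N-Cdr1asem1Nikr, and WT or KO came from the genotype label. Each group had 5 libraries, which the series' design text calls biological replicates. Within a genotype, the normoxic and the deprived library of 1 number had the same genotype label and batch label. Such a pair was taken as 1 culture in the counts of cultures below. Batch labels were 1, 3.1, 3.2 and 3.3 in WT and 1, 2, 3.1 and 3.3 in KO, so they were not balanced between genotypes. Some batch labels are shared by more than 1 number, and the deviations of paired libraries did not go together.

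Proteins that are secreted or inserted into membranes fold in the ER, and unfolded chains that build up there are sensed by 3 proteins of its membrane. The kinase and ribonuclease IRE1 (gene Ern1) cuts a short intron out of Xbp1 mRNA, which lets the transcription factor XBP1 be made in its active form. ATF6 (gene Atf6) is cut in the Golgi and its released part enters the nucleus, while the kinase PERK (gene Eif2ak3) slows translation and favours production of ATF4. XBP1 and ATF6 act on genes for chaperones, folding enzymes and the disposal of misfolded proteins through short promoter elements. Of the genes here, Sdf2l1, Pdia4, Pdia6, Calr and Canx serve folding, Herpud1 serves disposal, and Creld2 encodes an ER-resident protein known to be induced by ER stress. A table of genes counts both forms of Xbp1 mRNA together, so its splicing was not measured here.

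The best known of these elements is the ER stress response element (ERSE), which reads CCAAT, any 9 bases and CCACG, and binds NF-Y at its first part and ATF6 or XBP1 at its last. Another element, ERSE-II, reads ATTGG, any 1 base and CCACG. RefSeq promoter windows of GRCm38.p6, from 250 bases before to 50 bases after a gene's start, were found for 9 of the 10 genes, the other being Atf6. Searched on both strands with exact matches, 5 of these 9 windows held an ERSE or an ERSE-II, against 0.155% of the 32851 windows of all genes. The ERSE alone was in 0.119% and the ERSE-II in 0.0365% of windows. The 10 genes were picked as genes of a response known to act through such elements. Their share therefore describes them and is not a test of enrichment. The 5 matches are printed because an element of this kind is a sequence feature that these 5 genes share. They run 5′ to 3′ on the strand of the gene, with the element in capitals. In Calr and Creld2 the element lies on the opposite strand, so it appears as CGTGG, 9 other bases and ATTGG.
Herpud1: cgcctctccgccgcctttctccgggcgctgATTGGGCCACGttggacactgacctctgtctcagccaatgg
Pdia6: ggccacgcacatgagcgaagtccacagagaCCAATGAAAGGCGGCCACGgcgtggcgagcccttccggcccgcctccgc
Calr: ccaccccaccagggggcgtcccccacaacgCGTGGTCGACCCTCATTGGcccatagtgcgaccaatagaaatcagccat
Canx: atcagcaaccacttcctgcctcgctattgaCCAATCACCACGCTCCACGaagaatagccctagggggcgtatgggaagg
Creld2: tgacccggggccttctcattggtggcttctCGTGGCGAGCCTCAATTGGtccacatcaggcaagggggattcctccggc

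These stretches all lie upstream of the annotated start of their gene. The Herpud1 stretch is chr8:94386347-94386417 on the plus strand, with the ERSE-II from 52 to 42 bases before the start. For Pdia6 it is chr12:17266461-17266539 on the plus strand, with the ERSE 98 to 80 bases before the start. The Calr stretch is chr8:84847045-84847123 on the minus strand (162 to 144 bases before the start), and that of Canx is chr11:50325770-50325848 on the minus strand (145 to 127 bases before the start). The Creld2 stretch is chr15:88819490-88819568 on the plus strand, with the element 126 to 108 bases before the start. The windows of Xbp1, Ern1, Sdf2l1 and Pdia4 held neither element in these letters. The XBP1-binding sequence TGACGTGG, found in 0.676% of all windows, was in none of the 9. TGATGCAA, a composite C/EBP-ATF element that ATF4 binds, was in 0.895% of all windows and in that of Herpud1. The last part of both elements, CCACG, is so short that 32.8% of all windows held it, and 8 of the 9 did. These matches describe the letters of the windows, and no binding was measured.

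Levels are given as log2 CPM (log2 of scaled counts) on a scale joint to all 20 libraries, from reads recovered from the deposited values. On this scale the reads were divided by a factor for each library that is not its total of reads. These levels are therefore not those of a scaling to total reads. Differences are log2 fold changes fitted with limma within the table of each comparison, and genes were called where the p adjusted by Benjamini-Hochberg over the whole table was under 0.05. Libraries held 7071506 to 16658617 recovered reads. Cdr1as, the gene of ciRS-7, had 545 to 1912 reads in the WT libraries and 2 to 16 in the KO libraries, so no library went against its genotype label. Mitochondrial 16S ribosomal RNA (mt-Rnr2) took 10.1% to 16.4% of the reads of the N libraries and 13.8% to 32% of those of the OGD libraries, with OGD_KO replicate 5 the highest. The 11 neuron marker genes were all measured, and their summed level was 4720 to 6190 CPM in N_WT, 3040 to 5890 in OGD_WT, 5380 to 5540 in N_KO and 3260 to 4660 in OGD_KO. The 7 measured astrocyte markers summed to 1030 to 1210 CPM in N_WT and 1510 to 1990 in OGD_WT, and to 787 to 1420 in N_KO and 1390 to 1950 in OGD_KO. The 8 proliferation genes summed to 408 to 524 CPM in N_WT and 757 to 1380 in OGD_WT, and to 379 to 637 in N_KO and 933 to 1270 in OGD_KO. Of 8 microglial markers 0 were measured, and of 7 endothelial and mural and 5 fibroblast and meningeal markers 1 each was measured in all 4 tables. In bulk RNA fewer cells of a type and less RNA per cell cannot be told apart, and the part of these shifts in the results below was not tested.

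Under OGD the 10 genes did not move as one group. In WT neurons Pdia4, Sdf2l1 and Canx rose and Xbp1 fell, so that 4 of 10 were called, against 44.3% of all 14235 genes tested. In KO neurons Pdia4, Creld2 and Herpud1 rose and Xbp1 fell, again 4 of 10, against 40.9% of all 14375 genes. Counted by direction, 3 of 10 rose in each genotype, against 21.6% of all genes in WT and 21% in KO, and 1 of 10 fell, against 22.8% and 19.9%. Shares of this size are near the background, so the counts say nothing particular about the group. The median log2 fold change of the 10 genes was 0.28 in WT and 0.38 in KO, beside -0.03 and 0 over all genes. Only Pdia4 and Xbp1 of the 10 were called in both genotypes. In the plot of levels by library these genes move in opposite directions.

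**Figure D1:**
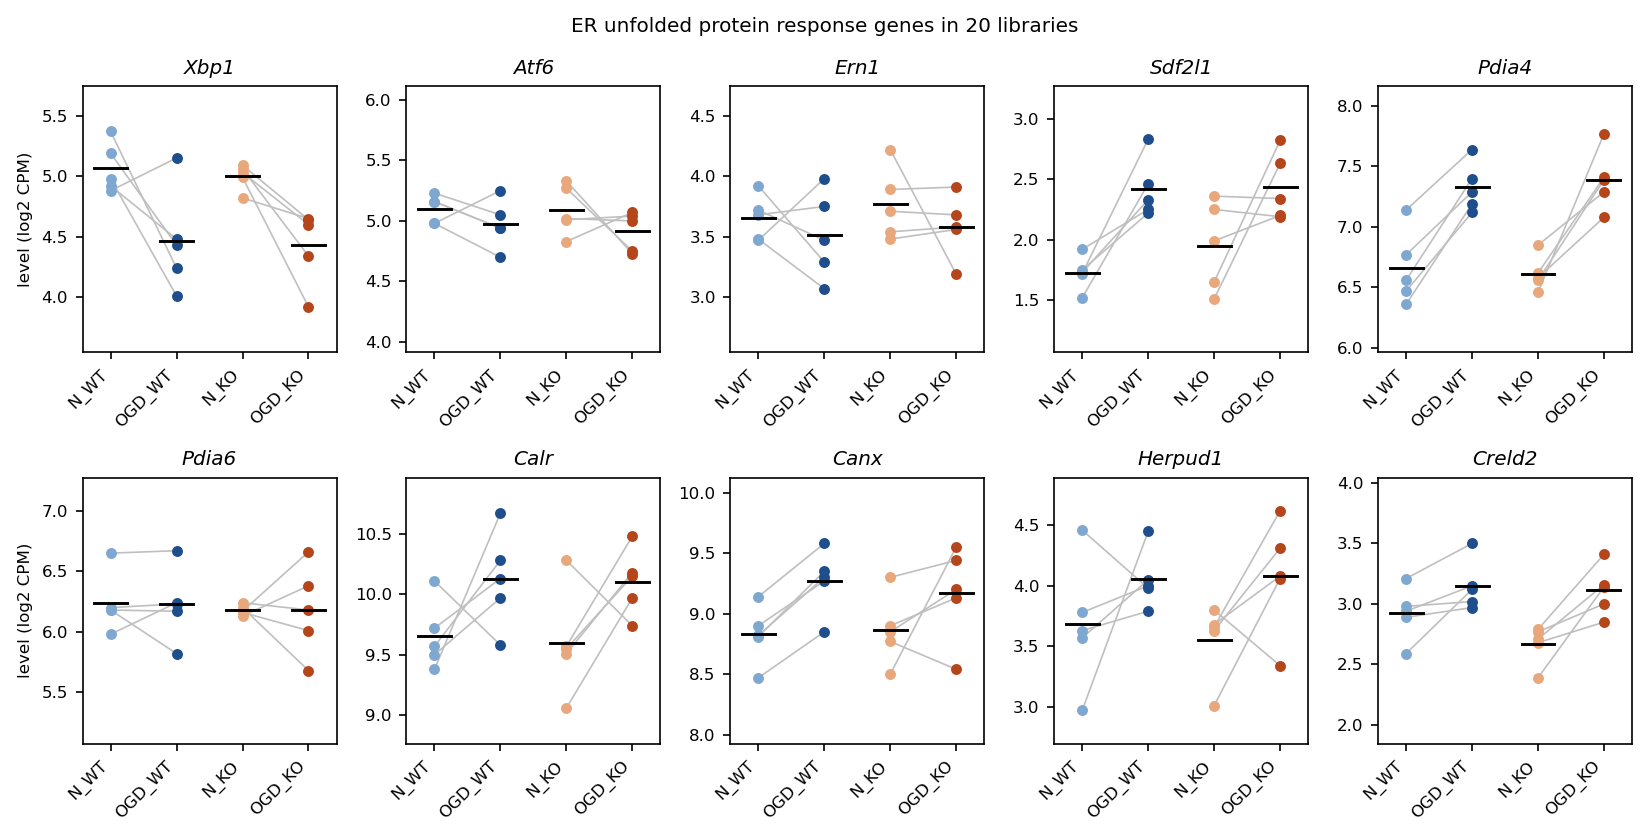
Levels (log2 CPM, joint scale) of the 10 genes in the 20 libraries, with 1 point per library, a black bar for the mean of each group of 5 and a grey line joining the N and OGD libraries of the same number. Each panel spans the same range of log2 CPM; Pdia4 rises along all 10 lines, and Xbp1 falls along 9 of them.

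Xbp1 was the member whose transcript fell. Its levels were 4.92, 5.37, 5.19, 4.98 and 4.88 log2 CPM in N_WT and 4.48, 4.24, 4.43, 4.01 and 5.15 in OGD_WT. All OGD_WT libraries but replicate 5 lay below every N_WT library, and replicate 5 lay within their range. In the KO the levels were 5.03, 4.99, 5.06, 4.82 and 5.09 in N_KO and 4.6, 3.92, 4.34, 4.65 and 4.64 in OGD_KO, with every OGD library below every normoxic one. The log2 fold change was -0.62 (SE 0.18) in WT (0.65-fold, limma adjusted p 0.00844, lower in 4 of 5 cultures) and -0.55 (SE 0.15) in KO (0.68-fold, limma adjusted p 0.00741, lower in 5 of 5 cultures). The exact permutation p was 0.0317 in WT and 0.00794 in KO, the latter the smallest that 5 against 5 libraries allow. Atf6 and Ern1 were not called. Atf6 had log2 fold changes of -0.14 (SE 0.14, limma adjusted p 0.437) in WT and -0.16 (SE 0.14, limma adjusted p 0.378) in KO, and its libraries ranged from 4.7 to 5.33 log2 CPM over the 4 groups. Ern1 ranged from 3.07 to 4.22 log2 CPM, with log2 fold changes of -0.15 (limma adjusted p 0.491) in WT and -0.17 (limma adjusted p 0.437) in KO. Both lay within the spread between libraries.

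Among the folding genes Pdia4, which encodes a protein disulfide isomerase, had the firmest rise. It was at 6.77, 6.36, 6.56, 7.14 and 6.47 log2 CPM in N_WT and at 7.29, 7.19, 7.4, 7.64 and 7.12 in OGD_WT. N_WT replicate 4 reached just into the range of the OGD_WT libraries, and the other 4 lay below it. In N_KO Pdia4 was at 6.56, 6.85, 6.62, 6.46 and 6.58, and in OGD_KO at 7.39, 7.29, 7.41, 7.77 and 7.08, without overlap. The log2 fold change was 0.65 (SE 0.16) in WT (1.57-fold, limma adjusted p 0.0025) and 0.78 (SE 0.15) in KO (1.72-fold, limma adjusted p 0.000455). It was higher in 5 of 5 cultures of each genotype, by 0.48 to 0.81 log2 units in WT and 0.46 to 1.32 in KO in the tables of these comparisons. Pdia6, another disulfide isomerase and a holder of an ERSE, did not follow. Its log2 fold change was -0.03 (95% confidence interval -0.37 to 0.31) in WT and 0.01 (-0.33 to 0.35) in KO, so a rise as large as that of Pdia4 lies outside both intervals. The Pdia6 libraries kept within 6.13 to 6.24 log2 CPM in N_KO and spread from 5.68 to 6.66 in OGD_KO, around the same mean of 6.18.

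Sdf2l1 encodes a luminal protein that works with J-domain co-chaperones of the ER. It was the least abundant of the 10 genes in reads, with 24 to 93 per library. Its levels were 1.73, 1.75, 1.92, 1.52 and 1.72 log2 CPM in N_WT and 2.33, 2.22, 2.25, 2.46 and 2.83 in OGD_WT, without overlap. In N_KO they were 1.65, 1.51, 2.25, 1.99 and 2.36, and in OGD_KO 2.82, 2.63, 2.19, 2.2 and 2.34, where 2 of the N_KO libraries lay within the OGD_KO range. Sdf2l1 rose in WT by 0.64 with SE 0.17 (1.56-fold, limma adjusted p 0.00333, higher in 5 of 5 cultures). In KO the log2 fold change was 0.47 with SE 0.19 (limma adjusted p 0.0516, higher in 3 of 5 cultures), which missed the threshold, although 4 of the 10 fits that left out a library called it. Non-overlap of the 2 groups, seen for Sdf2l1 in WT, was found for 26.9% of all genes in that table.

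The lectin chaperones Calr and Canx hold glycoproteins in the ER until they have folded, and Calr also binds calcium. Calr was at 9.72, 10.11, 9.57, 9.5 and 9.38 log2 CPM in N_WT and at 10.13, 9.58, 10.28, 9.97 and 10.67 in OGD_WT. It was at 9.55, 9.06, 9.51, 9.57 and 10.28 in N_KO and at 10.15, 9.97, 10.18, 10.48 and 9.74 in OGD_KO. In each genotype a single culture went the other way, WT replicate 2 and KO replicate 5, and the groups overlapped. The log2 fold change of Calr was 0.46 (SE 0.19) in WT (limma adjusted p 0.0592) and 0.52 (SE 0.21) in KO (limma adjusted p 0.0563), so it was not called in either. Without a library of the culture that went the other way, WT replicate 2 or KO replicate 5, Calr was called. The limma adjusted p-values were then down to 0.0151 in WT and 0.00798 in KO. Of the 10 fits that left out a library, only 2 called Calr in each genotype. Over these fits the limma adjusted p reached 0.148 in WT and 0.154 in KO.

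Canx was at 8.9, 8.81, 8.82, 9.14 and 8.47 log2 CPM in N_WT and at 9.27, 9.35, 9.3, 9.58 and 8.85 in OGD_WT. The groups overlapped, but each OGD library lay above the normoxic library of the same number, by 0.35 to 0.52 in the table of this comparison. In N_KO it was at 8.9, 8.5, 8.85, 9.3 and 8.77 and in OGD_KO at 9.13, 9.55, 9.2, 9.44 and 8.54, with more overlap. The log2 fold change was 0.43 (SE 0.16) in WT (limma adjusted p 0.0379, higher in 5 of 5 cultures) and 0.32 (SE 0.2) in KO (limma adjusted p 0.207). The WT call was fragile: leaving out 1 library kept it in 2 of 10 cases, and the limma adjusted p then ranged from 0.00793 to 0.104. Leaving out OGD_KO replicate 5, the library with the most mt-Rnr2, brought Canx to a limma adjusted p of 0.0293 in KO.

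Herpud1 encodes a membrane protein of the complex that hands misfolded proteins to the proteasome. It was at 3.57, 3.63, 3.78, 4.46 and 2.97 log2 CPM in N_WT and at 4.05, 3.79, 4, 3.98 and 4.45 in OGD_WT. It was at 3.63, 3.66, 3.68, 3.01 and 3.8 in N_KO and at 4.31, 4.62, 4.08, 4.06 and 3.34 in OGD_KO. Its spread between libraries was the widest of the 10 genes in N_WT, with an SD of 0.53 (n = 5). The log2 fold change was 0.35 (SE 0.2) in WT (limma adjusted p 0.167, and 0.0249 without N_WT replicate 4) and 0.53 (SE 0.2) in KO (limma adjusted p 0.0446, higher in 4 of 5 cultures). In KO the exact permutation p of Herpud1 was 0.0794 and the call held in 2 of the 10 fits that left out a library, with limma adjusted p-values of 0.0021 to 0.133.

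Creld2 was at 2.98, 2.59, 2.94, 3.21 and 2.89 log2 CPM in N_WT and at 3.02, 3.12, 3.15, 3.5 and 2.97 in OGD_WT, where the ranges overlapped. In N_KO it was at 2.71, 2.68, 2.77, 2.79 and 2.39 and in OGD_KO at 3.16, 2.85, 3, 3.41 and 3.14, where they did not. The log2 fold change was 0.21 (SE 0.16) in WT (limma adjusted p 0.29) and 0.44 (SE 0.15) in KO (limma adjusted p 0.0231), and Creld2 was higher in 5 of 5 cultures of each genotype. Non-overlap was found for 25.8% of all genes in the KO table. With the culture as a block, Creld2 and Herpud1 were no longer called in KO (limma adjusted p 0.0531 and 0.0722), which left Pdia4 and Xbp1. Batch labels split the cultures as well. Only the labels 3.1, 3.2 and 3.3, pooled as the batches numbered 3, held enough cultures for a fit, 4 in WT and 3 in KO. The pooled fit had no batch term, so batch was not held constant among its cultures. In the 4 WT cultures Xbp1 (-0.66, limma adjusted p 0.0211), Sdf2l1 (0.67, limma adjusted p 0.0152) and Pdia4 (0.69, limma adjusted p 0.0114) were called. Over all 14235 genes 4916 were called there. In the 3 KO cultures 0 members were called by limma, against 2341 of all 14375 genes. An unadjusted p under 0.05 was found for 1 member, against 4100 of all genes. Pdia4 was at 0.76 (limma adjusted p 0.0941), Xbp1 at -0.54 (0.23), Herpud1 at 0.52 (0.25) and Creld2 at 0.51 (0.266).

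**Figure D2:**
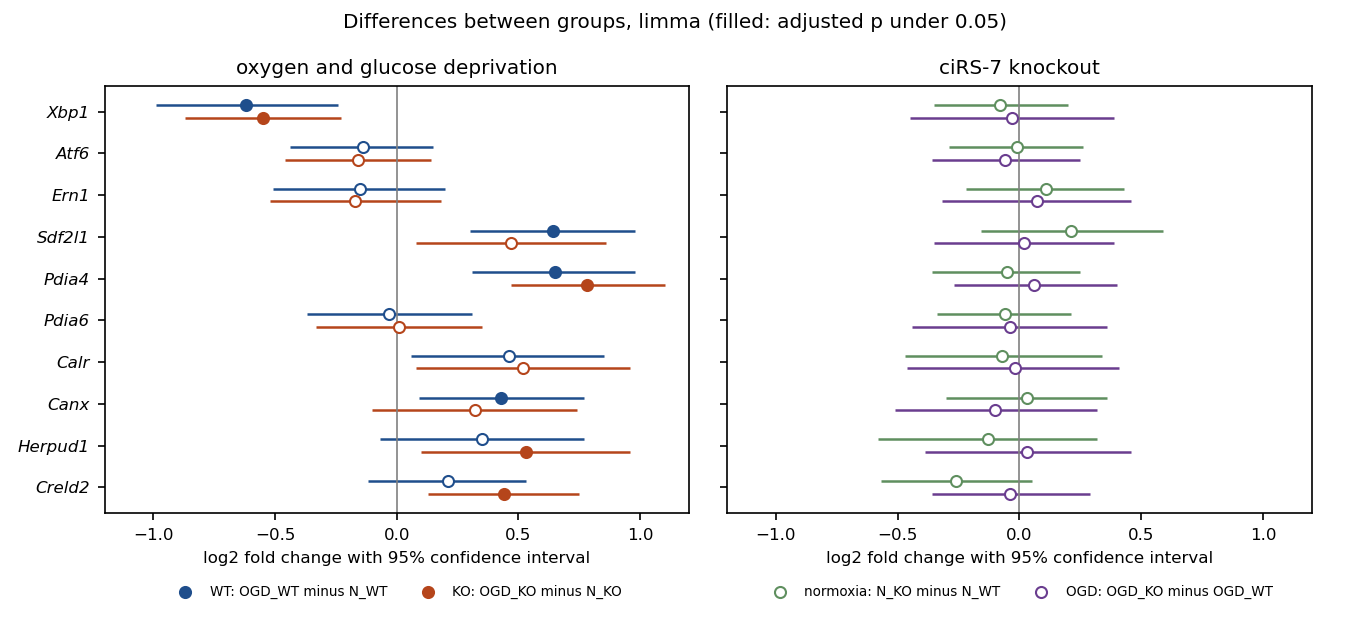
Log2 fold changes (points) with 95% confidence intervals (lines) of the 10 genes, under OGD in each genotype on the left and by knockout in each condition on the right, with filled points for limma adjusted p under 0.05. Under OGD the filled points are Xbp1 to the left of 0 and Sdf2l1, Pdia4, Canx, Herpud1 and Creld2 to the right in 1 or both genotypes, and by knockout no point is filled.

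Several of these calls depended on how the libraries were scaled. The authors' scaling put the median of all genes at -0.03 in WT and 0 in KO. Scaling to the total recovered reads moved that median to -0.3 in WT and -0.28 in KO, and the share of calls that were rises went from 3069 of 6313 to 1625 of 7369 in WT and from 3021 of 5884 to 1479 of 6768 in KO. On that scale Xbp1 and Atf6 were lower and 0 members higher in WT, while in KO Xbp1, Atf6 and Ern1 were lower and Pdia4 was higher. With mt-Rnr2 left out of the totals the medians of all genes were -0.15 and -0.12, and Xbp1 was lower, Pdia4 higher and, in WT, Sdf2l1 higher. Relative to the median of all genes, Pdia4 lay at 0.68 in WT and 0.78 in KO on the authors' scale and at 0.67 and 0.78 on total reads. Xbp1 lay at -0.59 and -0.55 on the authors' scale and at -0.6 and -0.56 on total reads. Creld2 in WT and Pdia6 in KO changed sign between the scales without being called on any of them.

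**Figure D3:**
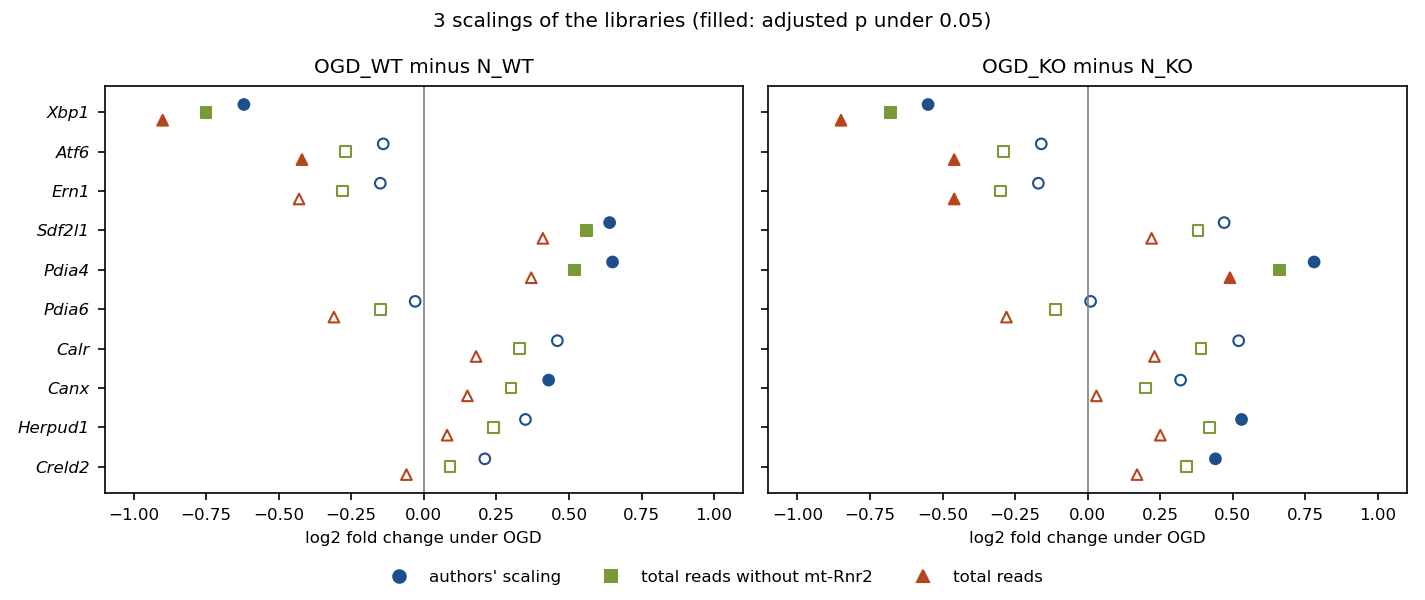
Log2 fold changes of the 10 genes under OGD with 3 scalings of the libraries (symbols), filled where the limma adjusted p was under 0.05. Each gene shifts to the left by a like amount from the authors' scaling to total reads, and Xbp1 stays filled in all 3 in both genotypes.

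The knockout of ciRS-7 left the 10 genes within the spread between libraries. In normoxia 0 of 10 were called by limma, against 0.0353% of 14152 genes. An unadjusted p under 0.05 was found for 0 of 10, against 256 of all 14152 genes. The log2 fold changes lay between -0.26 (Creld2, 95% confidence interval -0.57 to 0.05) and 0.21 (Sdf2l1, -0.16 to 0.59). Under OGD 0 of 10 were called by limma, against 0.0282% of 14185 genes. Again 0 had an unadjusted p under 0.05, against 253 of all 14185 genes. With so few genes past either threshold, these counts say nothing particular about the 10 genes. There the log2 fold changes lay between -0.1 for Canx and 0.07 for Ern1. For Xbp1 the knockout effect was -0.08 (-0.35 to 0.2) in normoxia and -0.03 (-0.45 to 0.39) under OGD, and for Pdia4 it was -0.05 (-0.36 to 0.25) and 0.06 (-0.27 to 0.4). The intervals over all 10 genes reached from -0.58 to 0.59 in normoxia and from -0.51 to 0.46 under OGD. Effects that lie within the interval of a gene are therefore not excluded for that gene.

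Whether OGD acted differently in the 2 genotypes was tested as an interaction over the 20 libraries. By limma 0 of the 10 genes were called, as were 0 of all 13688 genes (0%), of which 99 had an unadjusted p under 0.05. The difference KO minus WT of the OGD response was 0.04 for Xbp1 (95% confidence interval -0.5 to 0.59), 0.11 for Pdia4 (-0.39 to 0.62), -0.21 for Sdf2l1 (-0.76 to 0.35), -0.13 for Canx (-0.74 to 0.47), 0.16 for Herpud1 (-0.54 to 0.86) and 0.22 for Creld2 (-0.26 to 0.7). The calls that were made in a single genotype, for Sdf2l1 and Canx in WT and for Creld2 and Herpud1 in KO, are therefore not shown to differ between genotypes. The intervals were wide, and they do not show that the responses were equal.

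The remaining genes of the pathway were taken from 5 lists by role. Of the 26 measured genes for folding and chaperones, 7 rose and 4 fell in WT, and 6 rose and 2 fell in KO, with medians of 0.02 and 0.09. Over all genes 21.6% rose and 22.8% fell in WT and 21% and 19.9% in KO. On the authors' scale these shares are the background for each of the 5 lists. On total reads 2 of the folding genes rose and 9 fell in WT, and 2 rose and 6 fell in KO. There 1625 of all 14235 genes rose and 5744 fell in WT, and 1479 of all 14375 rose and 5289 fell in KO. The balance of the list thus turned with the scaling as did that of all genes. These numbers are the background for the counts of each list on total reads. With the replicate block 4 rose and 3 fell in WT. Hspa5, the gene of the chaperone BiP that holds the 3 sensors inactive, rose by 0.47 (SE 0.15, limma adjusted p 0.0182) in WT and 0.57 (SE 0.15, limma adjusted p 0.00641) in KO. Its N_WT libraries ranged from 8.12 to 8.76 log2 CPM and its OGD_WT libraries from 8.73 to 9.2, while the ranges of N_KO, 8.29 to 8.49, and OGD_KO, 8.65 to 9.29, did not meet. On total reads Hspa5 was at 0.19 (limma adjusted p 0.337) in WT and 0.28 (limma adjusted p 0.176) in KO, and was not called. Hsp90b1, the gene of the ER form of HSP90, rose by 0.73 in WT (limma adjusted p 0.00147) and 0.78 in KO (limma adjusted p 0.00135). The windows of Hspa5 and Hsp90b1 hold an ERSE or ERSE-II, as do those of Dnajb11, Dnajc3 and Ero1b among the 23 genes of this list that have a window. These 3, named for their windows after their values were seen, were not called: Dnajb11 was at -0.03 in WT and 0.16 in KO, Dnajc3 at -0.22 and -0.12, and Ero1b at -0.34 and -0.24. The oxidase gene Ero1a, which is also induced by hypoxia, had the largest rise of the list in WT, 1.59, and rose by 1.45 in KO, and P4hb rose by 0.69 and 0.58. The call of P4hb was lost with the replicate block (limma adjusted p 0.0874 in WT and 0.0717 in KO) and on total reads (0.125 and 0.23). Dnajb9, a J-domain co-chaperone and a known XBP1 target, was at 0.33 (limma adjusted p 0.105) in WT and 0.37 (limma adjusted p 0.0511) in KO. Dnajc10, a J-domain protein with disulfide reductase activity, fell by 1.14 in WT cultures and by 1.03 in KO cultures, and Clgn, a relative of Canx, fell by 0.58 and 0.75. Cdnf fell by 0.69 in WT and was at -0.48 (limma adjusted p 0.0575) in KO. Its level was low, at 0.66 to 1.11 log2 CPM in N_WT and -0.1 to 0.23 in OGD_WT.

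Most genes for the disposal of ER proteins were not called. Of 20 measured, 1 rose and 4 fell in WT, and 0 rose and 3 fell in KO, with medians of -0.14 and -0.07, and the falls were near or under the share over all genes. On total reads 0 rose and 9 fell in WT and 0 rose and 8 fell in KO. On the values as deposited 4 rose and 7 fell in WT and 1 rose and 5 fell in KO. As deposited, 4014 of all 14235 genes rose and 4266 fell in WT, and 4115 of all 14375 rose and 3909 fell in KO. Derl2, part of the channel through which misfolded proteins leave the ER, fell by 0.67 in WT (limma adjusted p 0.000932) and 0.56 in KO (limma adjusted p 0.0209), although with the replicate block the KO call was lost (limma adjusted p 0.0632). Its relative Derl1 was called in WT at 0.39 (limma adjusted p 0.0468), but not with the replicate block (0.0578), on total reads (0.563) or in 8 of the 10 fits that left out a library. Edem1, a mannosidase-like protein that marks glycoproteins for disposal, fell by 0.56 in WT and was at -0.33 (limma adjusted p 0.169) in KO. Faf2 fell by 0.53 and 0.42. Of 25 genes for translocation and transport, 2 rose in each genotype and 0 fell, fewer in both directions than the shares over all genes. On total reads 1 rose and 5 fell in WT and 1 rose and 4 fell in KO, and with the replicate block 1 rose in KO. The translocon partner Sec63 rose by 0.68 in WT and 0.66 in KO. Ssr3 rose by 0.51 in WT (0.23 on total reads, limma adjusted p 0.257) and was at 0.41 (limma adjusted p 0.0648) in KO.

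In the PERK and ATF4 branch most genes rose. Of 22 genes of this branch, 16 rose and 0 fell in WT and 18 rose and 0 fell in KO, with medians of 0.91 and 0.84, against 21.6% and 21% of all genes that rose. On total reads 14 and 13 rose and 0 fell. In the batches numbered 3 there were 10 rises and 0 falls over the 3 KO cultures, where 1190 of all 14375 genes rose. Many of these genes also answer to other stresses through ATF4, and since genes of this branch had been seen to rise in these data when the list was made, the count is not independent evidence of their direction. Asns, Vldlr, Stc2 and Dnajb1, named after their values were seen, were called in neither genotype, and Asns was at -0.06 in both. Atf4 rose by 0.89 in WT and 0.88 in KO, and Ddit3, the gene of the transcription factor CHOP, by 1.09 and 1.42. Atf3, a stress-induced transcription factor, rose by 2.96 and 2.85, the stress protein gene Nupr1 by 2.2 and 2.63, and the cystine transporter gene Slc7a11 by 1.82 and 2.12. Atf3 was low in normoxia, at -0.06 to 0.56 log2 CPM in N_WT and -0.6 to 0.9 in N_KO. Nupr1 was not among the genes kept for the comparison of N_KO with N_WT, and was kept in the comparisons that hold OGD libraries. Its place in the counts above therefore depends on the groups where it was high, and is not support for a rise.

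Of 14 measured genes of the sensors and their partners, 2 rose and 1 fell in each genotype, with medians of -0.02 in WT and -0.09 in KO. On total reads 1 rose and 5 fell in each genotype. The PERK gene Eif2ak3 was at 4.68 to 5.57 log2 CPM in N_WT and 6.12 to 6.43 in OGD_WT, and at 4.89 to 5.11 in N_KO and 5.91 to 6.73 in OGD_KO, without overlap in either genotype. It rose by 1.22 (SE 0.16) in WT (limma adjusted p 3.01e-06) and 1.16 (SE 0.16) in KO (limma adjusted p 1.93e-05), where the other sensor genes Ern1 and Atf6 were at -0.15 and -0.14 in WT and at -0.17 and -0.16 in KO. The cell death gene Bax rose by 0.56 and 0.63 (0.29 and 0.36 on total reads, limma adjusted p 0.113 and 0.0532), and Wfs1, which encodes an ER membrane protein, fell by 1.06 and 0.72. By knockout 0 genes of the 5 lists were called by limma in either condition. The genes at an unadjusted p under 0.05 were 2 in normoxia and 1 under OGD, all of the PERK and ATF4 list. Over all genes 256 of 14152 in normoxia and 253 of 14185 under OGD had such a p.

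**Figure D4:**
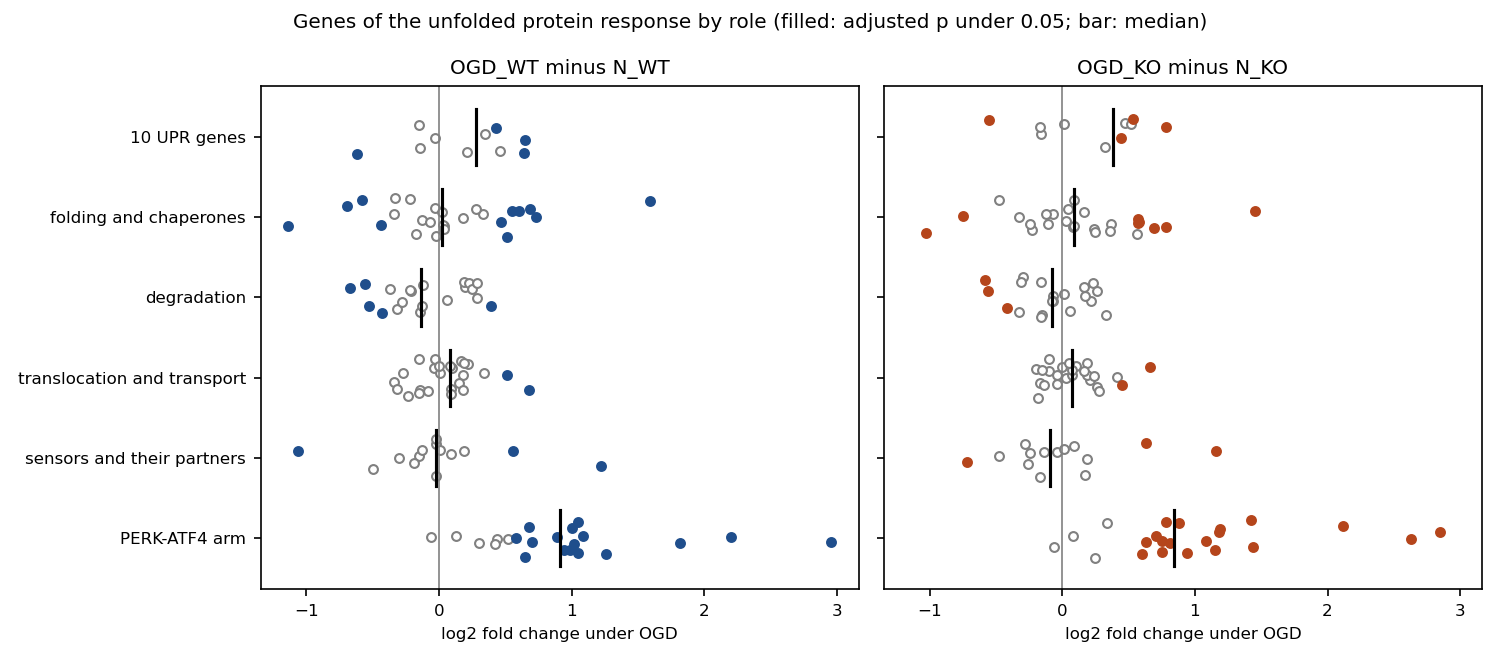
Log2 fold changes under OGD of the 10 genes and of 5 lists of other genes of the pathway, WT on the left and KO on the right, with 1 point per gene (filled at limma adjusted p under 0.05) and a black bar at the median of each list. The medians of the PERK and ATF4 list are 0.91 and 0.84, and those of the other 4 lists lie between -0.14 and 0.09.

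Within groups some of the 10 genes varied together. The deviations of the 20 libraries from their group means had a Pearson r of 0.8 between Pdia4 and Pdia6, 0.7 between Pdia4 and Creld2, 0.57 between Pdia6 and Creld2, 0.53 between Pdia6 and Canx and 0.52 between Pdia6 and Herpud1. Xbp1 correlated at 0.64 with Atf6, 0.54 with Calr and 0.47 with Ern1. The lowest values were -0.68 for Ern1 and Pdia4 and -0.56 for Xbp1 and Canx and for Ern1 and Creld2. Herpud1 had values from -0.13 to 0.52 with the others. So Pdia6, which did not move with Pdia4 under OGD, was its nearest member within groups. The points share libraries and their composition, and the values are descriptions. Over 12677 other genes with a mean of at least 1 log2 CPM, the deviations of Xbp1 were most like those of Pcyox1, Snn and Vps26c (r of 0.93 each). Those of Herpud1 were most like Epha7 (0.95), Dpysl5 (0.94) and Trps1 (0.93), and those of Calr most like Ankrd40 (0.95), Itga6 (0.95) and Tcaim (0.94).

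**Figure D5:**
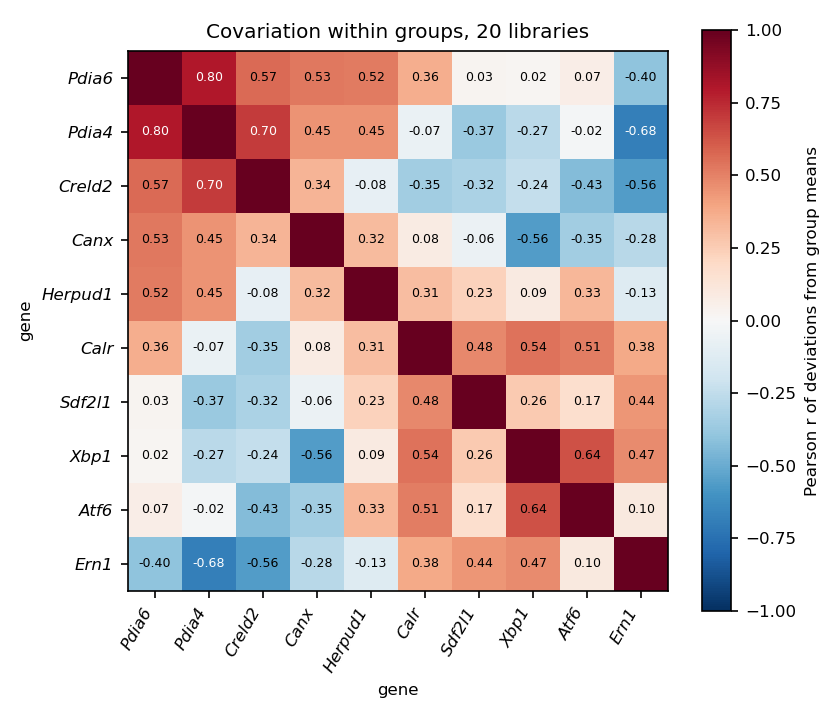
Pearson r between pairs of the 10 genes, from the deviations of 20 libraries from their group means, with red for positive and blue for negative values. Pdia6, Pdia4, Creld2 and Canx have positive values with each other, from 0.34 to 0.8. Calr, Sdf2l1, Xbp1, Atf6 and Ern1 do as well, from 0.1 to 0.64. Herpud1 has values from -0.08 to 0.52 with the first kind and from -0.13 to 0.33 with the second, and Calr and Pdia6 are at 0.36.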

How the data were processed

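RNA sequencing of 20 libraries (4 groups of 5) was deposited as 4 tables of 14152 to 14375 genes, each comparing 2 groups. From the values, the deposited unit is log2 CPM, scaled by the authors for each table, and tests were therefore run within a table. The submitters' processing notes name the genome build mm10; the aligner, the counting and its use of strand are not given in the sources used here. Inferred from the values, in every group a gene's highest and lowest values had been moved towards the next value (weights 0.6 and 0.4). Solving for this step gave back values that are whole reads (within 0.05 reads, genes of up to 500 reads) for at least 99.91% of genes in each library, against 45.28% to 92.77% as deposited, and the same reads in both tables of a library. The depth was 7071506 to 16658617 reads.

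Differences were fitted with limma 3.58.1 in R 4.3.3 (moderated, with an intensity trend) on the values with this step undone. The values as deposited are an alternative, as are other scalings, pseudocounts and filters, a replicate block, batches and left-out libraries. The interaction used recovered reads of 13688 genes with a prior count of 2 and the culture as a correlated block (consensus correlation -0.19). Exact permutation tests were two-sided, over libraries. The labels give N and OGD libraries of 1 number the same genotype label and batch, and they were taken as pairs. Their deviations did not go together (r of -0.71 to 0.03 in WT and -0.79 to -0.07 in KO, 0 of 5 pairs over 0.1). p-values set a difference against the spread between these libraries. The members and lists were chosen with earlier results of these data known. Named beside the 10 genes were the 3 largest called rises and falls under OGD in WT of each list, Hspa5, Hsp90b1, Dnajb9, Eif2ak3, Atf4 and Ddit3, and for Xbp1, Herpud1 and Calr the 3 genes with the most similar deviations. Promoters came from RefSeq GRCm38.p6.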

Additional observations from a re-analysis of the deposited data

Results flagged for a closer look

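In 2 of the 40 sets of 5 libraries (10 genes in 4 groups), 1 library stood apart from the other 4 by more than Dixon's limit, and chance at 1 in 20 gives about 2. Herpud1 in N_KO replicate 4 was at 3.01 log2 CPM, with the others at 3.63 to 3.8. Creld2 in N_KO replicate 5 was at 2.39 log2 CPM, with the others at 2.68 to 2.79. Without N_KO replicate 4 the limma adjusted p of Herpud1 under OGD in KO was 0.133 (log2 fold change 0.4), and without N_KO replicate 5 that of Creld2 was 0.0635 (0.38), so both calls were lost.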

How the results depend on the processing

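Xbp1 and Pdia4 in both genotypes and Sdf2l1 in WT kept their calls under OGD in all 10 fits that left out a library. Of the 10 genes, 4 were called in each genotype, and leaving out 1 library gave 3 to 5 in WT and 2 to 7 in KO (2 without OGD_KO replicate 1, 7 without OGD_KO replicate 5). In KO the count was 7 on the values as deposited. It was 0 in the 3 cultures of the batches numbered 3, where fewer samples entered the fit. Over all 14375 genes these fits called 8024 and 2341, beside 5884 in the main fit, so the background moved as well. Both scalings to totals were added after the data were seen. On total reads the WT count was 2, and with mt-Rnr2 left out the KO count was 2. Over all genes these fits called 7369 of 14235 and 6063 of 14374. For the remaining changes of count the cause was not tested. With the replicate block, which follows the pairing of N and OGD libraries, the KO count was 2 and the WT count stayed at 4. Over all genes that block called 4829 of 14375 in KO and 5681 of 14235 in WT. Between genotypes the numbers are shared only by name (r of -0.13 to 0.23 in normoxia and -0.19 to 0.25 under OGD), and the block moved the calls among all genes from 5 to 3 and from 4 to 2, with 0 of the 10 genes called. Among all genes the values as deposited gave 9 and 12 calls by knockout, and the batch label as a covariate 11 and 17. Apart from left-out libraries, 82 of 90 gene results in WT and 73 of 90 in KO stayed on their side of the threshold. By knockout and for the interaction 0 of the 10 genes were called by limma under any alternative run, leaving out each library included (0 to 0). Reads of the 10 genes were fewest for Sdf2l1, 24 to 93 per library.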
